A study of Mus musculus with 14 samples.

Results

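Sites of histone H3 acetylated at lysine 27 (H3K27ac) were examined at 10 genes that encode pluripotency factors, Pou5f1, Sox2, Nanog, Klf4, Esrrb, Tfcp2l1, Zfp42, Prdm14, Sall4 and Lin28a, in mouse embryo fibroblasts. A site counted for a gene when at least 1 base lay in the gene body annotated by GENCODE on mm10 or within 20 kb of either end. The 10 windows spanned 697766 bp in all and held 22 of the 122228 sites of the list. The cells were iMEF, immortalised mouse embryo fibroblasts carrying Cre-ER and floxed Ash2l, from which exon 4 of the endogenous gene had been deleted. In its place they expressed human ASH2L, a subunit of histone H3 lysine 4 methyltransferase complexes, with an FKBP12F36V tag at its N-terminus. This tag is bound by dTAG, which recruits an E3 ubiquitin ligase and so leads to degradation of the fusion protein. Every library, the controls included, came from such cells, and the clone studied, NG3, is 1 clone of immortalised cells.

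The 14 libraries formed 8 groups, of which 6 comprised 2 H3K27ac libraries each, namely untreated cells and cells kept in dTAG for 30 min or for 2, 4, 8 or 16 h. The other 2 groups were single input libraries, without dTAG and after 16 h of dTAG. The list analysed joined the peaks of all H3K27ac samples and gave positions only. No value per sample, replicate error or read depth could therefore be computed, a site may stem from any time point, and the absence of a site means only that no peak was listed there. The iMEF label was compared with cell type markers. Of 16 fibroblast markers 13 had a site in the same kind of window, with 57 at Fn1 and 15 at Col1a1, while Lum, Dcn and Fap had 0. Sites were also listed in the windows of 5 of 5 endothelial, 4 of 5 macrophage and blood, 4 of 5 epithelial and 3 of 5 neuronal markers, so that a site in a window did not separate cell types. A site at the promoter was listed for 11 of the 16 fibroblast markers, and for 2, 2, 1 and 1 of the 5 markers of these other lists. Over all protein-coding genes 75% had a site in the window and 54.7% a site at the promoter. The shares of the fibroblast markers were 81.2% and 68.8%, and no difference was tested.

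Pluripotent cells of the early embryo and embryonic stem cells are maintained by a network of transcription factors in which Oct4 (encoded by Pou5f1), Sox2 and Nanog bind many of the same enhancers, their own included. Klf4, Esrrb, Tfcp2l1, Prdm14 and Sall4 act together with this core, and Zfp42 (Rex1) is widely used as a marker of naive pluripotent cells. Most of these genes are silent in differentiated fibroblasts, whereas Klf4 also acts in epithelia and other differentiated tissues, and Oct4, Sox2, Klf4 and c-Myc are the classical factors used to reprogram fibroblasts. Acetylation of H3K27 marks active promoters and enhancers, and ChIP-seq locates it along the genome.

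Sequences that the positions below turn on are shown first, from GRCm38.p6 and on the strand of the gene. Capitals mark matches, on either strand, to TGANTCA (AP-1), ATGCAAAT (the octamer of POU factors), CATTGT (SOX factors), GGGNGNGGC (KLF and SP factors, since a GC box contains the same letters) and AAGGTCA (the ESRRB element). A match describes the letters and not binding. The stretches upstream of Pou5f1, Sox2, Nanog and Zfp42 come from the RefSeq promoter table, in which 8 of the 10 genes were found. They lie at chr17:35505782-35506017, chr3:34649745-34649994, chr6:122707239-122707488 and chr8:43307010-43307259 (minus strand). They are shown because no site was listed over any of them.
Pou5f1 upstream: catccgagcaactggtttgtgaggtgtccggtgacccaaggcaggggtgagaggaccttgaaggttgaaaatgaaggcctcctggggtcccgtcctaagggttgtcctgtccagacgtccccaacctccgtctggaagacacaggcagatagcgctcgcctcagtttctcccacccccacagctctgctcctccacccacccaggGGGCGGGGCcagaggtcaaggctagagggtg
Sox2 upstream: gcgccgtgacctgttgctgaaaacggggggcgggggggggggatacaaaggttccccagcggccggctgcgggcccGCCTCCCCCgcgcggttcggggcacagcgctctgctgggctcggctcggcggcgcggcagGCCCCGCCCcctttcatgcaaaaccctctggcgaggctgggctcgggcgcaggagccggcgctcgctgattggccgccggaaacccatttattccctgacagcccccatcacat
Nanog upstream: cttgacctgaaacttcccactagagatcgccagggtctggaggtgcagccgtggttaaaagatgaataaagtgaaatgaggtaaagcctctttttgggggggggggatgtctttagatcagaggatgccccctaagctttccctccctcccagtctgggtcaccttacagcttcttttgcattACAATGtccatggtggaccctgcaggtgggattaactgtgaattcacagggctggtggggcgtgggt
Zfp42 upstream: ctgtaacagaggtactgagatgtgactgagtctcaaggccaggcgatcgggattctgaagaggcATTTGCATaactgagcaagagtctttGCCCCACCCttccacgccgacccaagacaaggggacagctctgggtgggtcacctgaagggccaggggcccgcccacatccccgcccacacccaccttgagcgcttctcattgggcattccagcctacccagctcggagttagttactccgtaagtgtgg

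At Klf4 the sequence shown is the gap of 175 bp between the widest sites of the gene, immediately upstream of its 5′ end (chr4:55532505-55532679, minus strand). The central 300 bp of a site of 711 bp further upstream follow (chr4:55541104-55541403, minus strand).
Klf4 gap: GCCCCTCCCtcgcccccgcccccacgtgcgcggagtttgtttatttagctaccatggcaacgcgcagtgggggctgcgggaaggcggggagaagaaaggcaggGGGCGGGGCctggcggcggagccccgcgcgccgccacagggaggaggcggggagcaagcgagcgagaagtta
Klf4 distal site: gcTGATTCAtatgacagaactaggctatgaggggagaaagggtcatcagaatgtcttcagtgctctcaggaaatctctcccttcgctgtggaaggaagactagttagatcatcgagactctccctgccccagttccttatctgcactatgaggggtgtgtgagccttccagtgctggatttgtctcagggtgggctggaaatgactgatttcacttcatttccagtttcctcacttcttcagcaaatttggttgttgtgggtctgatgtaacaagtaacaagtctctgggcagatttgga

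From the other loci, the 300 bp nearest to the gene of the widest site at Nanog (chr6:122703835-122704134), the central 300 bp of the intronic sites of Esrrb (chr12:86395714-86396013) and Tfcp2l1 (chr1:118661025-118661324), and 40 bp around an octamer in the latter (chr1:118660755-118660794) are shown.
Nanog proximal site: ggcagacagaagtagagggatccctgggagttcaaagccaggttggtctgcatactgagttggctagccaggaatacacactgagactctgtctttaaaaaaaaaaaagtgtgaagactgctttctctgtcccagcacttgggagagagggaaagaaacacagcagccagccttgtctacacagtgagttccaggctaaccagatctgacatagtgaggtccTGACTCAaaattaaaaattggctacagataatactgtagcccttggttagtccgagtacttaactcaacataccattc
Esrrb intronic site: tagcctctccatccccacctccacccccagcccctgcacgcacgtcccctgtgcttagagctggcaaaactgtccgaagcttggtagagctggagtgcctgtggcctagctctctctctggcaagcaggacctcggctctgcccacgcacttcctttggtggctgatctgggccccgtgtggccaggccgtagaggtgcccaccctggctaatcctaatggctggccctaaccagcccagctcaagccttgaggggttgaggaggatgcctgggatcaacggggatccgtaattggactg
Tfcp2l1 intronic site: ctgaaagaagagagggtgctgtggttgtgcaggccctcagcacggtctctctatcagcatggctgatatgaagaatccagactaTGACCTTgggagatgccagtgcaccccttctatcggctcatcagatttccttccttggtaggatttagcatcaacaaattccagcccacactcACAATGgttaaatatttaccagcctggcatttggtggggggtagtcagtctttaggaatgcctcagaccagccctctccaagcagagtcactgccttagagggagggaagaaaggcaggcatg
Tfcp2l1 octamer: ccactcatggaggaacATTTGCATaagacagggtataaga

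A site was found in the windows of 6 of the 10 genes, compared with 75% of the 21755 protein-coding genes (16312 genes). Klf4 had 10 sites, Nanog 5, Pou5f1 3, Tfcp2l1 2, and Esrrb and Lin28a 1 each. The windows of Sox2, Zfp42, Prdm14 and Sall4 had none. Thus Klf4 alone accounted for 45.5% of the sites and for 42.9% of the base pairs in sites. Of the 22 sites, 11 lay upstream of a 5′ end, 4 in a gene body and 7 downstream of a gene. Gene bodies with a site were those of Klf4 (2 sites), Esrrb (1) and Tfcp2l1 (1), that is 3 of 10 compared with 61.3% of protein-coding genes.

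**Figure D1:**
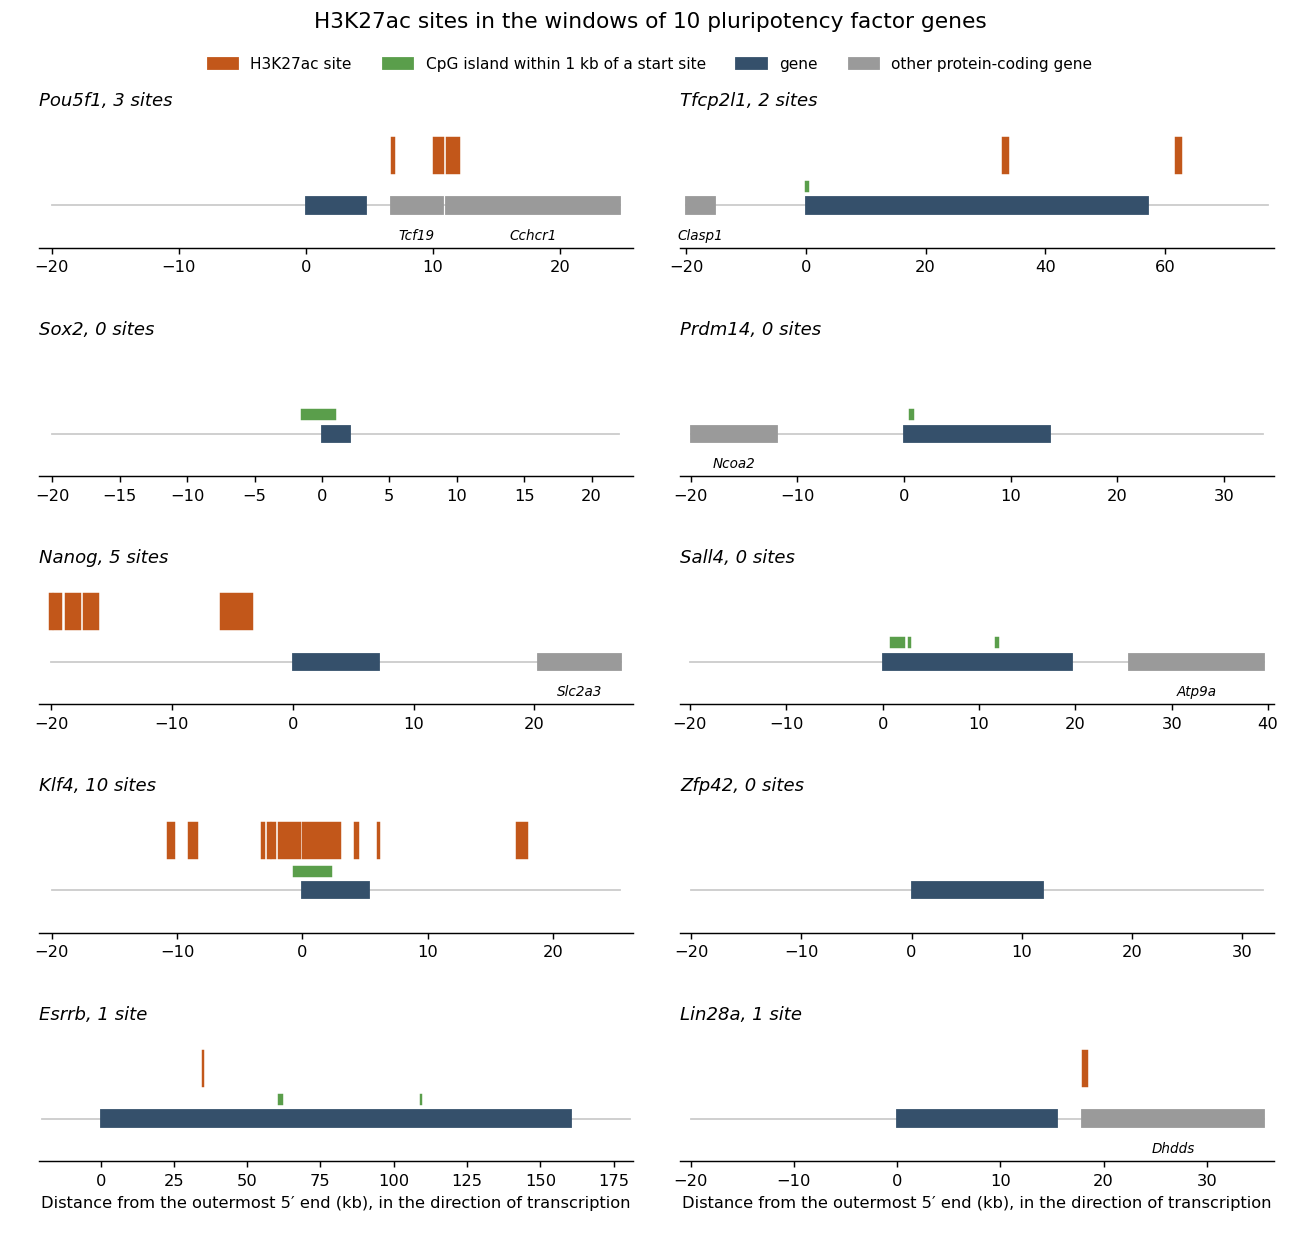
The windows of the 10 genes, drawn from 20 kb before the outermost 5′ end to 20 kb past the 3′ end on an axis in kb that differs between panels, with H3K27ac sites as orange blocks to scale above CpG islands within 1 kb of a transcription start site and protein-coding genes. The 10 sites at Klf4 surround and cover its 5′ end, whereas the sites at Pou5f1 and Lin28a overlap neighbouring genes and 4 windows have none.

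Windows differ in length because the gene bodies range from 2057 bp (Sox2) to 160512 bp (Esrrb), and sites were therefore also expressed per 100 kb. Klf4 had 22.1 sites per 100 kb, Nanog 10.6, Pou5f1 6.70, Tfcp2l1 2.06, Lin28a 1.80 and Esrrb 0.499. The median of the 10 genes was 1.15 compared with 4.88 over all protein-coding genes, and 0.499 without Klf4. Only Klf4, Nanog and Pou5f1 exceeded the median of all genes. The same 3 genes did so without the narrowest 25% of sites and with sites less than 1 kb apart merged. Pou5f1 then had only 4.47 sites per 100 kb in both cases, against medians of 3.98 and 3.25. With a margin of 10 kb, for which this comparison was not made, Nanog had 1 site rather than 5. All 3 sites in the window of Pou5f1 were nearer to the start of another gene. For Klf4, 7.03% of protein-coding genes (1530) had at least as many sites per 100 kb. The 4 genes without a site were among the 5443 of the 21755 protein-coding genes that had none.

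**Figure D2:**
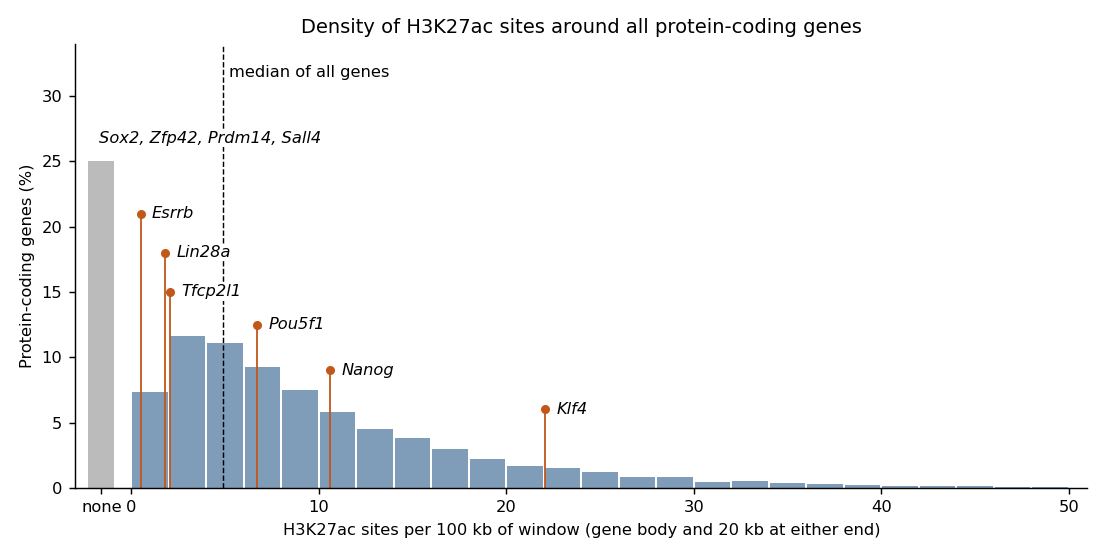
Distribution of H3K27ac sites per 100 kb of window over all 21755 protein-coding genes (bars, percent of genes per interval of 2 sites per 100 kb, genes without a site as the grey bar, the 0.358% of genes above 50 not drawn), with the pluripotency factor genes marked by orange lines whose heights carry no value. Klf4 lies in the upper tail at 22.1, Nanog and Pou5f1 above the median of 4.88, and the other 7 genes below it.

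At promoters Klf4 stood apart from the other 9 genes. It was the only 1 of the 10 genes with the middle of a site within 1 kb of a transcription start site (TSS), compared with 54.7% of protein-coding genes. It was also the only one with any base of a site within 1 kb of a TSS (55.8% of all genes) or with a site over the outermost 5′ end (36.5% of all genes). The same held with windows of 2 or 3 kb around the TSS. From the nearest TSS of the gene to the middle of the nearest site the distance was 787 bp at Klf4, 4046 bp at Pou5f1, 4696 bp at Nanog and 8758 bp at Lin28a. It was 22673 bp at Tfcp2l1, 25781 bp at Esrrb, 34356 bp at Prdm14, 45535 bp at Zfp42, 92728 bp at Sox2 and 127323 bp at Sall4. The median of 24227 bp compared with 498 bp over all protein-coding genes.

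Promoters with a CpG island (CGI), a stretch rich in CpG dinucleotides, carry H3K27ac more often than others, and the genes were therefore split by this feature. Of the 6 genes with a CGI within 1 kb of a TSS (Sox2, Klf4, Esrrb, Prdm14, Tfcp2l1 and Sall4), 1 had a promoter site, compared with 80.4% of the 12683 protein-coding genes with a CGI. None of the 4 genes without a CGI (Pou5f1, Nanog, Zfp42 and Lin28a) had one, compared with 18.9% of 9072 such genes. Within the whole window, a site was found for 92.2% of protein-coding genes with a CGI and for 51% without. Of the 6 members with a CGI 3 had one (Klf4, Esrrb and Tfcp2l1) and so did 3 of the 4 without (Pou5f1, Nanog and Lin28a). The members had 9 promoter CGIs in all, 1 at Klf4, Sox2, Prdm14 and Tfcp2l1 each, 2 at Esrrb and 3 at Sall4. Sites overlapped that of Klf4 and none of the other 8, whereas 64.0% of all 16114 CGIs and 74.1% of the 2598 CGIs of at least 1000 bp had a site. These totals include CGIs away from promoters, and no share was computed for promoter CGIs alone.

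**Figure D3:**
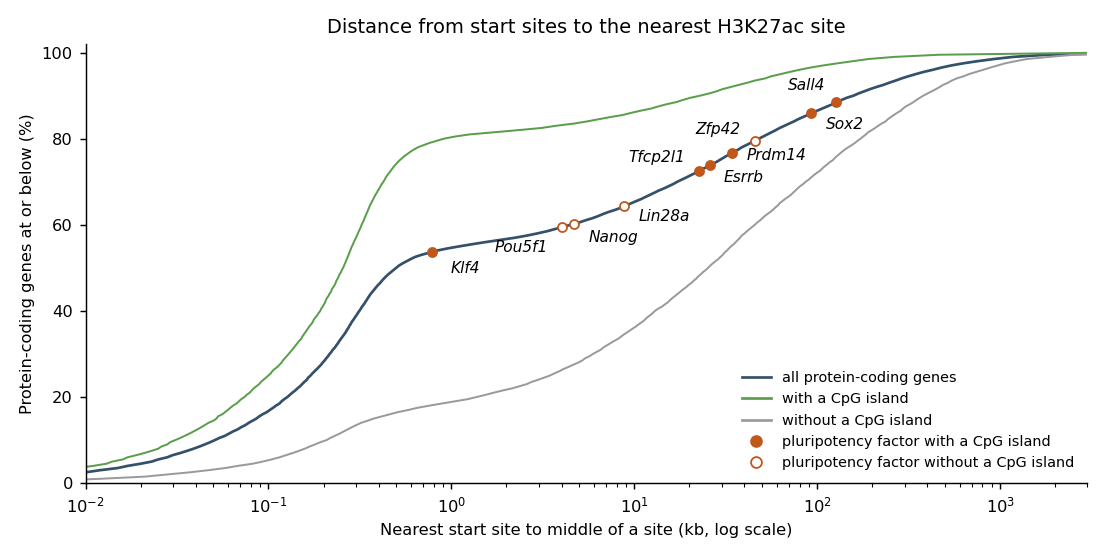
Share of protein-coding genes (vertical axis, percent) whose nearest site lies at or below a given distance from a transcription start site (horizontal axis, kb on a log scale), for all genes, for genes with and for genes without a CpG island, with the 10 pluripotency factor genes on the curve of all genes. Klf4 at 787 bp sits at the end of the steep rise, and the other 9 genes lie between 4046 and 127323 bp.

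Pou5f1 encodes Oct4, a POU domain factor, and lies on chr17:35506018-35510772. Its 3 sites were all downstream, with widths of 208, 743 and 1061 bp. The first lay 1991 bp past the 3′ end in an untranslated region of Tcf19, and the others lay at the promoters of Tcf19 and Cchcr1, with their middles 118 and 113 bp from a TSS of these genes. For none of the 3 was Pou5f1 the gene with the nearest TSS. Upstream, the nearest site was 242417 bp away in an exon of H2-D1, and the protein-coding genes in between were the 6 class I histocompatibility genes H2-Q1, H2-Q2, H2-Q4, H2-Q6, H2-Q7 and H2-Q10. These belong to a family of related genes, and how well reads could be assigned to them was not tested. The 236 bp printed upstream of Pou5f1 hold a GGGNGNGGC match close to the 5′ end and had no site.

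Sox2, a high mobility group factor that pairs with Oct4, lies on chr3:34650405-34652461 within the long non-coding gene Sox2ot. No site was listed over the gene or its CGI of 2537 bp with 203 CpG dinucleotides. The region free of sites reached 136914 bp upstream and 90021 bp downstream. The nearest sites beyond it, of 1301 and 951 bp, had their middles 92728 and 93925 bp downstream of the 5′ end in intergenic sequence. Sox2 was the nearest protein-coding TSS to both. Sox2ot itself had 5 sites in its body.

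Nanog, a homeodomain factor, lies on chr6:122707489-122714633. Its 5 sites were all upstream and intergenic. A cluster of 4, with widths of 265, 684, 1249 and 1233 bp and gaps of 74, 297 and 268 bp, extended from position -20183 to -16114 relative to the 5′ end. A single site of 2683 bp extended from -6037 to -3355 and was wider than 97.9% of all sites. No site was listed over the promoter, where the upstream sequence shown holds a SOX match, or in the body. Nanog had the nearest protein-coding TSS for all 5, whereas the processed pseudogenes Gm10420 and Gm10224 were nearer when every annotated gene was counted. Sequence masked as repeats made up 73.6, 25.7, 44.4 and 62.8% of the 4 clustered sites, in order towards the gene, and 37.2% of the widest, compared with a median of 11% over all sites. Of the 22 sites, 2 were more than 50% repeat, both in this cluster, compared with 9.73% of all sites. Downstream of Nanog, Slc2a3, which encodes the glucose transporter GLUT3, had 11 sites in its body, the nearest of them 40129 bp from Nanog and outside the window.

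Klf4, a zinc finger factor of the Krüppel-like family, lies on the minus strand of chr4:55527143-55532466 with no protein-coding neighbour in its window. Upstream of its outermost 5′ end were 6 sites, with middles at -10539, -8787, -3191, -2720, -2358 and -1080 bp and widths of 579, 711, 308, 254, 273 and 1733 bp. In the gene were 2 sites of 3042 and 351 bp, with middles at 1483 and 4278 bp, and downstream 2 sites of 209 and 846 bp, at 6026 and 17472 bp. The widest, chr4:55529463-55532504, was wider than 98.5% of all sites and reached from -38 to 3003 bp relative to the 5′ end. Its middle was 787 bp from the start of a shorter annotated transcript of Klf4 (chr4:55530603-55531770), so that the count by the middle of a site rests on this internal start, whereas the overlap with the outermost 5′ end does not. The next widest, chr4:55532680-55534412, came to within 213 bp of the 5′ end. Both overlapped the CGI of 3030 bp with 254 CpG dinucleotides, and the gap of 175 bp between them, shown above, lay inside it. Its sequence had a GC content of 71.4% with 19 CpG dinucleotides and 2 matches to GGGNGNGGC.

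Sites covered 63.0% of the gene body of Klf4. All 1449 coding bases of the longest coding transcript lay in sites, as did 4 of its 5 exons completely. The remaining exon, which holds the 3′ untranslated region, was covered over 288 of 1158 bp. Klf4 had the nearest protein-coding TSS for all 10 sites and the nearest annotated TSS for 9. The exception was the site of 846 bp downstream, which overlapped a further CGI and was nearer to the pseudogene Gm12507. Extension of the margin to 50 and 100 kb added few sites (11 and 12 in all), so that the sites of Klf4 were concentrated near the gene. Of the promoters in the RefSeq table, that of Klf4 (250 bp before to 50 bp after the start) held 4 matches to GGGNGNGGC, the most of the 11 promoters of the 8 genes found.

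**Figure D4:**
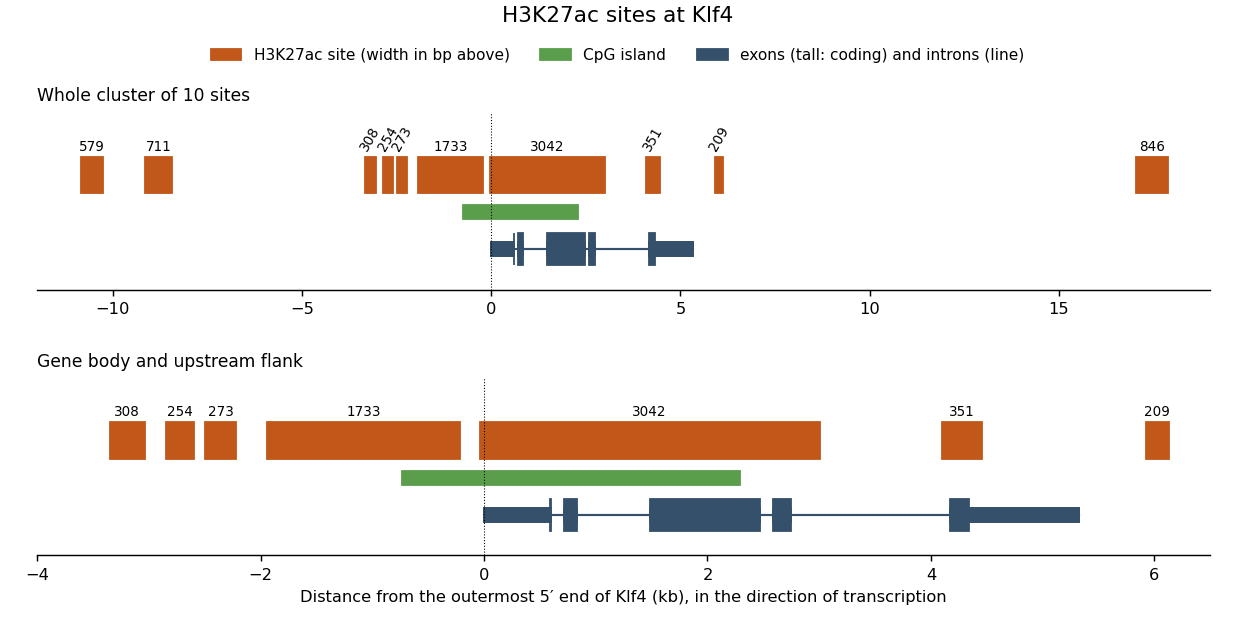
H3K27ac sites at Klf4 (orange, width in bp above each), its CpG island (green) and the exons of its longest coding transcript (blue, coding parts tall) against distance from the outermost 5′ end in kb, for the whole cluster (upper panel) and the gene body with its upstream flank (lower panel). The sites of 1733 and 3042 bp flank a gap of 175 bp just upstream of the 5′ end, and the site of 3042 bp covers the first 4 exons.

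Esrrb, an orphan nuclear receptor, has the longest body (chr12:86361117-86521628) and contained a single site of 387 bp in an intron (chr12:86395670-86396056), 34746 bp from the 5′ end. The nearest sites outside the gene were 109490 bp upstream and 156860 bp downstream. The CGIs of 1243 and 447 bp at internal start sites had none. The intronic sequence shown holds none of the 5 motifs.

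Tfcp2l1, a grainyhead-like factor of naive pluripotency, lies on chr1:118627945-118685168. It had an intronic site of 1001 bp (chr1:118660674-118661674), with its middle 33229 bp from the 5′ end, and an intergenic site of 1028 bp (chr1:118689668-118690695), which began 4499 bp past the 3′ end. The CGI of 458 bp at the promoter had none. Within the intronic site there was 1 match each to the octamer, the SOX motif and the ESRRB element. It was the only 1 of the 22 sites with an octamer over the whole width, a count without a background of equal width. In the central 300 bp, 0 of the 22 sites held an octamer, compared with 1.11% of all sites. The upstream neighbour Clasp1, which encodes a microtubule-binding protein, had 36 sites in its body, and the nearest of these to Tfcp2l1 was 22536 bp from its 5′ end.

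Among the other zinc finger factors, Zfp42 (chr8:43295063-43306980) lay in the longest span free of sites of the 10 genes, which comprised 445234 bp upstream and 33484 bp downstream of the gene. The sequence upstream of Zfp42 holds an octamer, as do 1.74% of 32851 RefSeq promoters, and a GGGNGNGGC match. Prdm14 (chr1:13113457-13127163), a PR domain factor, had its nearest site 34179 bp upstream in an intron of Ncoa2, a nuclear receptor coactivator with 9 sites in its body, and on the downstream side 170309 bp were free of sites. Sall4 (chr2:168748332-168767943), a spalt-like factor, was the only 1 of the 10 genes without a site within 100 kb, with 186382 bp upstream and 119512 bp downstream to the nearest. Its neighbour Atp9a had none either.

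Lin28a encodes an RNA-binding protein that blocks maturation of let-7 microRNAs (chr4:134003330-134018841). The single site in its window, 502 bp wide, was 2425 bp past its 3′ end and 218 bp from the TSS of Dhdds, which encodes a subunit of cis-prenyltransferase. Together with those at Tcf19 and Cchcr1, it was 1 of 3 sites within 1 kb of a TSS of another gene. Without these 3, 19 sites at 5 genes remained.

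The sites had a median width of 697.5 bp, ranging from 208 to 3042 bp, compared with a median of 401 bp over all sites. Of the 22, 3 were narrower than the lower quartile of all sites (265 bp). Their median GC content was 50.1% compared with 48.8%, and 6 overlapped a CGI, of which 3 were at Klf4. In the central 300 bp, AP-1 letters were found in 2 of the 22 sites (9.09%) compared with 12.4% of all sites. The corresponding shares were 0% compared with 1.11% for the octamer and 4.55% compared with 13.1% for the SOX motif. They were 9.09% compared with 9.01% for KLF and SP factors and 9.09% compared with 5.75% for the ESRRB element. With so few sites these shares rest on 0 to 2 sites each. The window of 300 bp runs past the ends of narrower sites, which were 5 of the 22 and 32.9% of all, and 1 of the AP-1 matches, at the site of 209 bp downstream of Klf4, lay outside the site itself. Over their whole widths, 6 of the 22 sites held AP-1 letters, a count without a background of equal width. Of the 11 promoters of the 8 genes in the RefSeq table, 6 held GGGNGNGGC, compared with 25.8% of all promoters in the table. The SOX motif was found in 5 of the 11 (12.6% of all promoters) and the octamer in 1 (1.74%). AP-1 letters and the ESRRB element were found in 0 of the 11, compared with 7.81% and 4.72% of all promoters. The promoters listed for Nanog overlap and each held a SOX match, so that they are not independent.

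Other genes of the pluripotency network were examined in the same way. Of 40 such genes 29 had a site in the window and 19 a promoter site, compared with 6 and 1 of the 10 factors. These shares of 72.5% and 47.5% were no higher than the 75% and 54.7% of all protein-coding genes. With a CGI, 18 of 30 had a promoter site, and without, 1 of 10, compared with 80.4% and 18.9% of protein-coding genes. Genes with the most sites were Il6st with 60, Tcf7l1 with 21, Lifr with 14, Stat3 and Id3 with 13 each, Myc with 12, Etv5 with 11 and Tet1 with 9. Il6st and Lifr encode the receptor subunits gp130 and LIFR and Stat3 the factor they activate, and these genes, like Myc, are used in many tissues. Genes without a listed site included Dppa5a, Tdgf1, Fgf4, Nr0b1, Mycn, Dnmt3l, Otx2, L1td1, Gbx2 and Tcl1. The counts are descriptive, since the genes were chosen with earlier results known.

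Sites at the 10 mesenchymal transcription factors served for comparison. All 10 had a site in the window, from 1 at Tcf21 to 37 at Zeb1, and the median was 15.8 sites per 100 kb compared with 1.15 for the pluripotency factors. Among the mesenchymal factors, 6 had a promoter site by the middle of the site and 9 by any overlap. Of 10 GATA and myogenic factors, which define lineages other than fibroblasts, 7 had a site, from 12 at Gata6 to 0 at Gata5, Myod1 and Myog, with a median of 6.40 sites per 100 kb, and 3 had a promoter site. By promoter sites the pluripotency factors had the smallest share of the lists compared (1 of 10), and by sites in the window the difference was smaller. Over all protein-coding genes, 75% had a site in the window and 54.7% a promoter site, with a median of 4.88 sites per 100 kb. The window share of the GATA and myogenic factors and the promoter share of the mesenchymal factors by the middle of the site were thus near those of all genes.

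**Figure D5:**
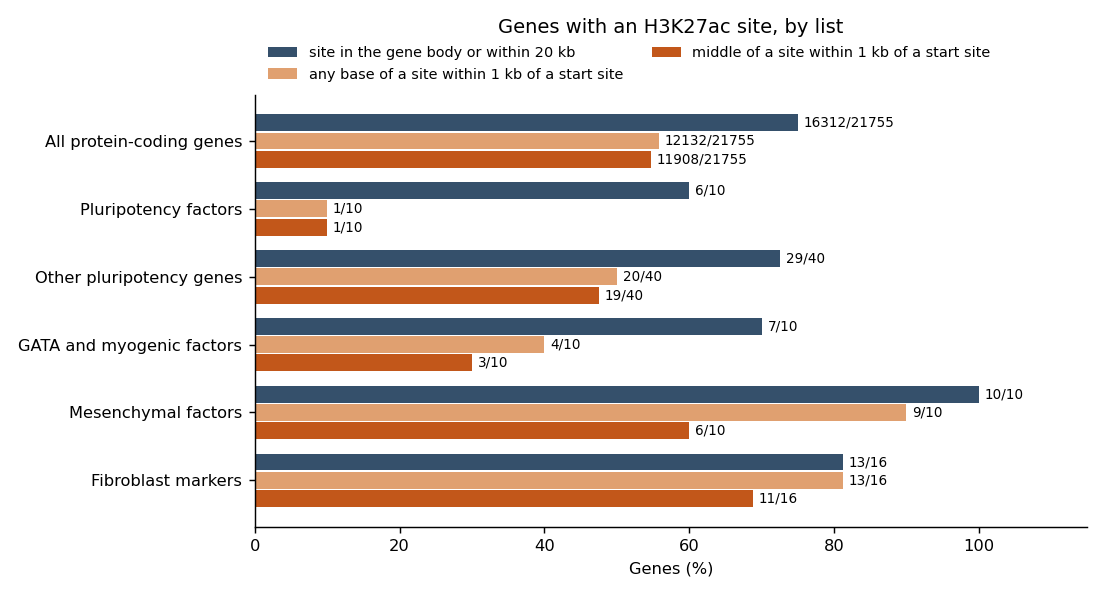
Percent of genes with a site in the gene body or within 20 kb, with any base of a site within 1 kb of a transcription start site, and with the middle of a site there, for all protein-coding genes and 5 lists, with the numbers of genes beside each bar. The pluripotency factors reach 6 of 10 in the window and 1 of 10 at the promoter, the mesenchymal factors 10 of 10 and 6 of 10.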

How the data were processed

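Per the labels and the study's methods, reads were trimmed (Trim Galore) and aligned to mm10, GRCm38.p6 (BWA), unusable reads were removed (SAMtools) and replicates were pooled (Picard). Narrow peaks came from MACS2, whose version and threshold were not given in the sources used here. The peaks of all samples were joined, by a method not stated, and the authors deposited the resulting sites as positions in base pairs (chromosome, start and end). If overlapping peaks were merged, a width may exceed that in any sample, and a peak of 1 time point cannot be told apart from one of all.

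Starts were read as counted from 0, since the narrowest sites then measured 200 bp, and positions are printed counted from 1. Of 122228 sites, 122171 on chromosomes 1 to 19 and X were compared with GENCODE M21 genes, an earlier release than that of the authors, using Python 3.11.15, pandas 2.3.3 and numpy 2.4.6. CGIs were runs of CpG in repeat-masked sequence of at least 200 bp, with at least 50% GC and CpG at 0.6 or more of the expected frequency. The counting was tested on simulated data. No significance test was possible or made, and percentages over all protein-coding genes give the background. Alternatives were other margins, overlap rules, TSS windows and width filters. All 10 genes were named, as were the 8 other pluripotency genes with most sites and those with 0, the highest and lowest gene of each comparison list, and neighbours with a TSS within 1 kb of a site. A gene that this rule names is not reported here. Other genes named were chosen after their values were seen. The members and lists were chosen with earlier results of these data known.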

Additional observations from a re-analysis of the deposited data

How the results depend on the processing

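Of 32 values recomputed for the 6 quantities under other settings, 24 stayed within 1.5 times the value reported, and Klf4 was the only gene with a promoter site with TSS windows of 2 and 3 kb and by any overlap. The margin moved the counts most. With gene bodies alone, 3 genes (Klf4, Esrrb and Tfcp2l1) and 4 sites remained. A margin of 10 kb kept 6 genes with a site and gave 16 sites, 1 of them at Nanog. A margin of 50 kb gave 42 sites, 33888 bp in sites and a median of 2.18 sites per 100 kb, and added Zfp42 and Prdm14 to the genes with a site (8). A margin of 100 kb gave 69 sites and added Sox2 (9). With sites less than 1 kb apart merged, 14 sites remained, and Klf4 then had 13.2 and Nanog 4.24 sites per 100 kb. By the nearest TSS of any annotated gene, 10 rather than 18 sites belonged to one of the 10 genes, since the 5 sites of Nanog, the 2 of Tfcp2l1 and 1 of Klf4 were nearer to a pseudogene or a small RNA gene. Leaving out Klf4, an alternative chosen after seeing the data, left 5 genes with a site, 12 sites, 11044 bp in sites, a median of 0.499 sites per 100 kb and 0 genes with a promoter site. No paired analysis was possible because sites came without values per sample, so that no replicate could be left out either. Depth was unknown from the list, and a gene without a site may have acetylation below the threshold of the peak caller.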

Other observations

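Relatives of the pluripotency factors were grouped after the values of the factors had been seen. The background over all protein-coding genes was 75% for a site in the window and 54.7% for a promoter site. Of 16 other KLF genes 14 had a site in the window and 12 a promoter site, with 31 sites each at Klf6 and Klf13, so that Klf4 with 10 sites was not the member of its family with the most. Of 18 other SOX genes 13 had a site and 7 a promoter site, whereas Sox2, like Sox1, Sox14 and Sox17, had none. Of 14 other POU genes 8 had a site and 2 a promoter site, and of 13 other PRDM genes 12 had a site and 10 a promoter site, compared with none at Prdm14. Over the 71 relatives in all families, 55 (77.5%) had a site in the window and 36 (50.7%) a promoter site. Both shares were near the 75% and 54.7% of all protein-coding genes. All 36 were among the 66 relatives with a CGI, a smaller share than the 80.4% of all protein-coding genes with a CGI, and none of the 5 relatives without a CGI had one. These counts are descriptions, and no difference between families was tested.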
